A study of Nezara viridula with 24 samples.

Results

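RNA levels in midgut section M3 were compared between diets in Nezara viridula, the southern green stink bug, with 3 libraries from insects fed green bean and 3 from insects fed corn. These 6 libraries are all those labelled M3 among the 24 of the series. Transcript counts from the midgut table were summed to Trinity genes, and the tests were made on genes.

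The stink bug pierces plant tissue, releases enzymes in its saliva and sucks up the partly digested food. The midgut that receives it is a tube of successive sections, in which food is first stored and then broken down and absorbed before it reaches the hindmost section, where many stink bugs house bacteria. The gut cells of true bugs carry extra membranes over their microvilli in place of the lining found in most insects, and digestive enzymes such as cysteine and aspartic proteases act in the lumen and between these membranes. Corn and green bean are both hosts of this insect, and bean seeds and pods are known to contain inhibitors of digestive enzymes.

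Insects were moved to fresh green bean or corn when they became adults and fed for 24 h before dissection. Both groups were kept at 27 degrees C and 65% relative humidity, and the labels name no strain, sex or further treatment. Each library pooled the dissected tissue of 4 to 10 individuals, so variation between single insects was not observed. Polyadenylated RNA was sequenced, and the labels do not say whether the replicates came from separate cultures, so the p-values measure the spread between these pools. In such bulk tissue, fewer cells of a type and less RNA per cell cannot be told apart.

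The assembly behind the tables holds 298322 transcripts in 201329 Trinity genes, which are clusters of transcripts built from the reads themselves. The files pair no gene name, function or sequence with these identifiers. Genes therefore appear here by identifier and measured values, marker genes could not be used to check the M3 label, and pathways could not be described. An assembly of this kind can hold RNA of food plants and microbes beside that of the insect, and which genes belong to the insect was not determined.

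The M3 libraries held 31033908, 33954593 and 25755332 counts on green bean, and 27023727, 22603185 and 27126639 on corn. Genes with at least 1 count numbered 93477, 81089 and 69622 on green bean, and 122664, 59476 and 55003 on corn. Corn replicate 1 thus had the most detected genes of the 6 libraries and corn replicates 2 and 3 the fewest, with all green bean libraries between them. The mean difference, green bean minus corn, was 2348 genes, from 81396 ± 11930 on green bean and 79048 ± 37839 on corn (SD, n = 3 each; two-sided exact permutation p = 1, where 0.1 is the smallest this design allows). The sign of this difference was not stable. After thinning all libraries to the size of the smallest it was -2707 genes. It was also negative without green bean replicate 1 (-3692), corn replicate 2 (-7438) or corn replicate 3 (-9674). It stayed positive without green bean replicate 2 or 3 or corn replicate 1. The genes that held 50% of the counts numbered 96, 141 and 119 on green bean and 183, 138 and 98 on corn, overlapping ranges with a mean difference of -21 genes (two-sided exact permutation p = 0.6).

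Green bean replicate 1 stood apart from the other M3 libraries. In this library 7651 genes reached at least 1 CPM (a count scaled to the total of its library) and lay at least 10 times above each of the other 5 M3 libraries, and together they took 8.28% of its counts. The same genes took 0.0725% and 0.0400% of the counts in the other two green bean libraries and 0.0433%, 0.0290% and 0.0250% on corn. Applied to each of the other 5 libraries, the same rule found 6, 66, 45, 1 and 4 genes. The rule was chosen after the values were seen.

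Within this set of genes the levels were mostly low. The median gene stood at 2.87 CPM in green bean replicate 1, 104 genes reached 100 CPM, and the highest, at 11401 CPM, supplied 13.8% of the set's counts. In the other 5 M3 libraries 3428 of the 7651 genes had no count at all. Of the set, 2941 genes passed the filter for testing, 12.8% of the genes tested.

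The set was also present in other midgut sections on green bean. Replicate 1 of M1 on green bean had a count for 7635 of the genes, which took 2.84% of its counts, and replicate 1 of M2 for 7543, which took 0.568%. Replicate 2 of M2 detected 6692 of them at 0.176% of its counts, and replicate 2 of M3 detected 4190. In the 9 corn midgut libraries between 34 and 85 of the genes were detected. In the salivary glands on green bean, 2960, 357 and 364 of them were detected in replicates 1 to 3. On corn the glands detected 57, 38 and 41 in the same order. Levels across the 7651 genes in green bean M3 replicate 1 correlated with those in green bean M1 replicate 1 at r = 0.86 (log2 of CPM plus 0.1, across genes of one pair of libraries, which are not independent replicates). The labels give no reason for this difference between libraries, and its cause was not tested.

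**Figure D1:**
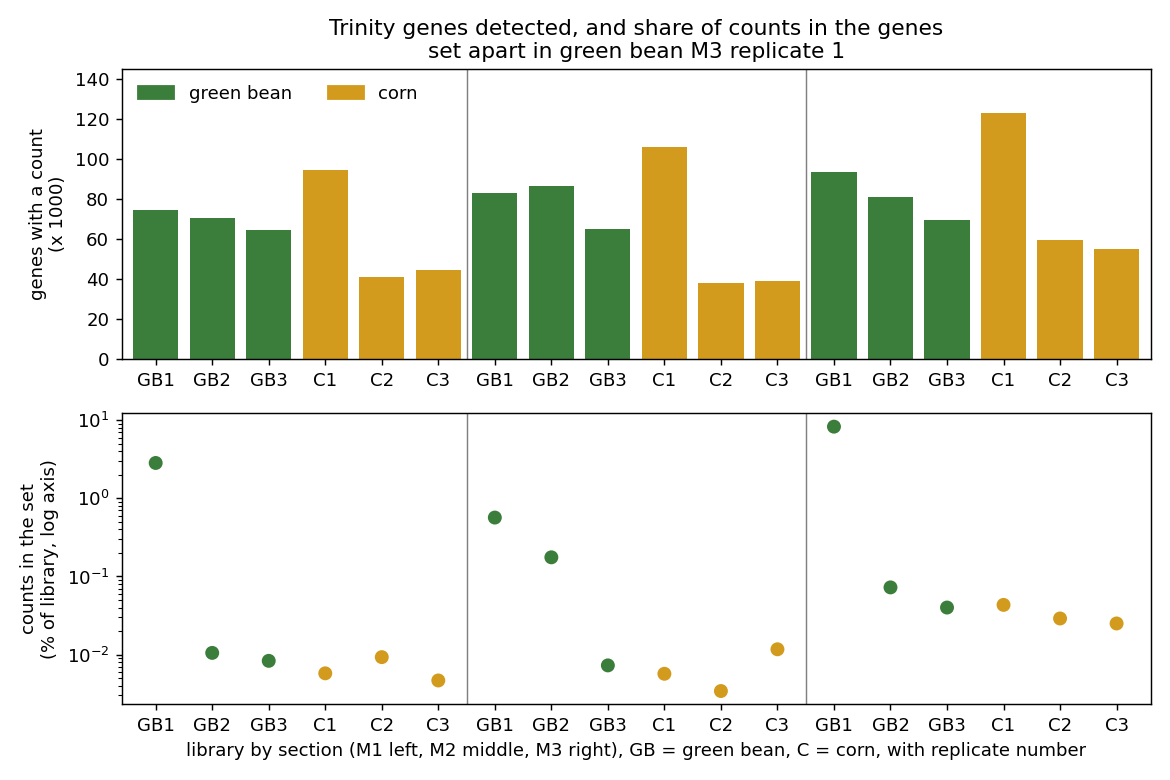
Number of Trinity genes with a count (upper panel, in units of 1000) and percent of counts in the 7651 genes set apart in green bean M3 replicate 1 (lower panel, log axis) for the 18 midgut libraries, with M1 at the left, M2 in the middle and M3 at the right, and green bean left of corn in each section. In M3 the share was 8.28% in green bean replicate 1 and at most 0.0725% in the others, and corn replicate 1 detected 122664 genes, the most of all 18.

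Over the genes that passed the filter, the correlation of log2 CPM between green bean replicate 1 and the other M3 libraries was 0.62 to 0.75, against 0.94 to 0.98 between the other 5. Without the set it was 0.95 to 0.96, against 0.93 to 0.97 between the other 5. The set was chosen for lying far above those libraries, so a rise on leaving it out was built in.

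No gene differed between green bean and corn in M3 at an adjusted p under 0.05. Of 23008 genes tested, 0 were called (0%) by edgeR's quasi-likelihood test with Benjamini-Hochberg adjustment, fitted to all 18 midgut libraries, and the smallest adjusted p was 0.159. At an unadjusted p under 0.05 there were 1815 genes (7.89% of those tested), 1233 higher and 582 lower on green bean. Of the 1233 higher genes, 785 belonged to the set of green bean replicate 1, and outside the set the counts were 448 higher and 582 lower. All 2941 tested genes of the set were higher on green bean by the rule that chose them. Leaving them out can therefore only lower the count of higher genes and the median. The median log2 fold change over all genes tested was 0.0013, and without the set it was -0.09.

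The count of calls depended on the fit. A fit of the 6 M3 libraries alone called 7 of 15059 genes (0.0465%), 1 higher and 6 lower on green bean. DESeq2 on the 18 libraries called 891 of 21243 genes (4.19%), 704 higher and 187 lower. On simulated counts with known changes, DESeq2's calls held more false genes than its threshold allows, and a larger share than edgeR's. The DESeq2 counts are given as an alternative and are not read at that threshold. The simulated counts were drawn with edgeR's own estimates of spread and library size, which can favour edgeR. No simulated library was set apart as green bean replicate 1 was. The false share of either method here was therefore not measured, and the simulation does not decide between their counts. Of those 704, 571 belonged to the set of green bean replicate 1, and the diets did not overlap in 192 (27.3%), while among the 187 lower genes they did not overlap in 180 (96.3%). Without green bean replicate 1 in any section, DESeq2 called 129 of 14452 genes, 45 higher and 84 lower on green bean. The edgeR fit of the same libraries, with genes filtered anew, called 0, with 1164 of 23053 genes at an unadjusted p under 0.05. DESeq2 had started from the 23008 genes of the 18-library fit. On those genes edgeR called 3, all higher on green bean, with 958 at an unadjusted p under 0.05.

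In 3076 genes (13.4%) all 3 green bean libraries lay on one side of all 3 corn libraries. Of these, 1549 were higher and 1527 lower on green bean. Without the set of green bean replicate 1, which supplied 150 of the higher genes, the count was 2926 of 20067 genes, 1399 higher and 1527 lower. The distances between libraries of one diet and of different diets overlapped. The median absolute log2 difference over genes outside the set was 0.36 to 0.44 between pairs of green bean libraries, 0.45 to 0.76 between a green bean and a corn library, and 0.48 to 0.77 between pairs of corn libraries.

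**Figure D2:**
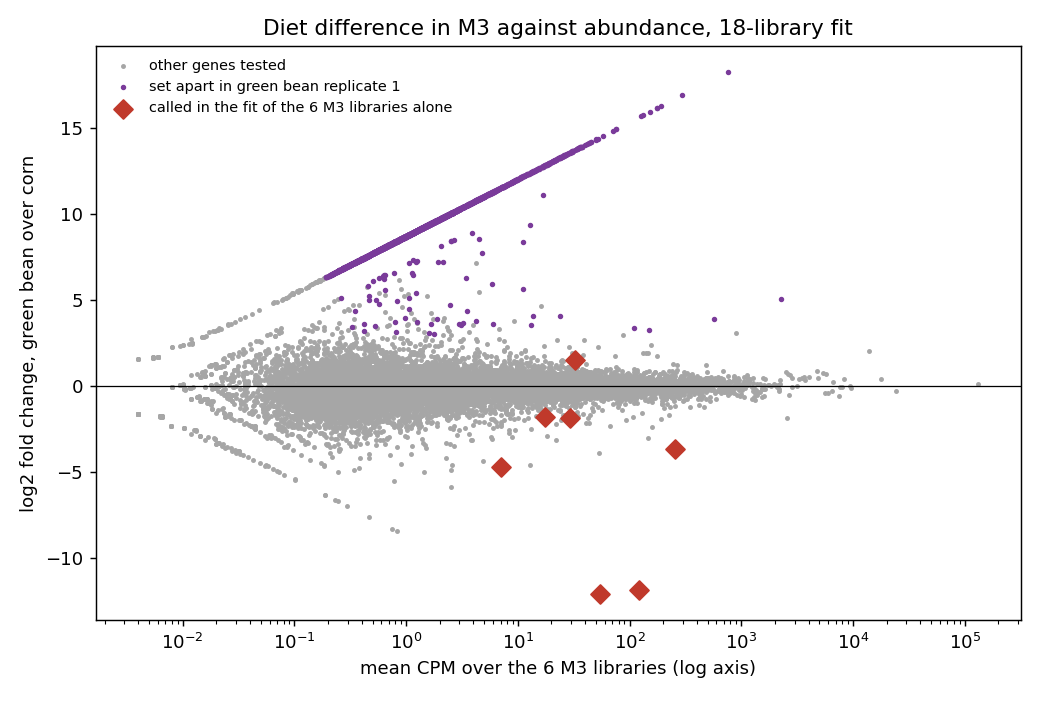
Log2 fold change of green bean over corn in M3 (y axis) against mean CPM over the 6 M3 libraries (x axis, log axis) for the 23008 genes tested, from the fit of 18 libraries. Purple points are the 2941 tested genes set apart in green bean replicate 1, which form the upper arm, and red diamonds are the 7 genes called in the fit of the 6 M3 libraries alone, 1 above and 6 below 0.

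How closely the data bound a diet difference varied with abundance. The 95% interval of the fold change lay within 2-fold either way for 4657 of the 22935 genes with a computable interval (20.3%), none of them in the set of green bean replicate 1. In the class with a mean of 10 to 100 CPM this held for 2732 of 4531 genes (60.3%), and in that of 100 to 1000 CPM for 660 of 1152 (57.3%). Under 1 CPM it held for 13 of 10664 genes (0.122%), so most genes of low abundance could differ by more than 2-fold without detection at this depth and spread. In the class of 1000 CPM and over the interval lay within 2-fold for 24 of 88 genes (27.3%).

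The most abundant gene of M3 overlapped between the diets. TRINITY_DN223_c10_g2 took 14.1%, 14.7% and 16.4% of all counts on green bean, and 13.2%, 16.2% and 15.1% on corn. Its log2 fold change was 0.11 ± 0.48 (SE), with a 95% interval from -0.91 to 1.13. The interval includes differences close to 2-fold in either direction, so equal levels were not shown.

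The next most abundant genes also overlapped between the diets. TRINITY_DN0_c0_g3 stood at 21143, 22321 and 22754 CPM on green bean, and at 17595, 26073 and 36574 CPM on corn. The green bean libraries all fell inside the range of the corn libraries, and the log2 fold change was -0.28 ± 0.42. TRINITY_DN256_c0_g1 stood at 28781, 12587 and 19299 CPM on green bean, and at 11187, 11934 and 22797 CPM on corn, with a log2 fold change of 0.40 ± 0.50, and of 0.11 ± 0.56 without green bean replicate 1 in any section. In each of these 3 genes a single isoform held nearly all counts on both diets, 97.1% on green bean and 97.5% on corn in TRINITY_DN256_c0_g1 and 100% in the other two.

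Together the 50 most abundant genes took 41.3 ± 2.39% of the counts on green bean and 39.4 ± 3.17% on corn (SD, n = 3 each). Of the 50, 30 were higher and 20 lower on green bean, against 11516 higher and 11419 lower over all genes tested. The diets did not overlap in 6 of them, 5 higher and 1 lower, against 13.4% of all genes tested, and 1 of the 5 belonged to the set of green bean replicate 1. The median log2 fold change of the 50 was 0.07, and their 95% intervals lay within 2-fold for 14, against 20.3% of all genes.

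**Figure D3:**
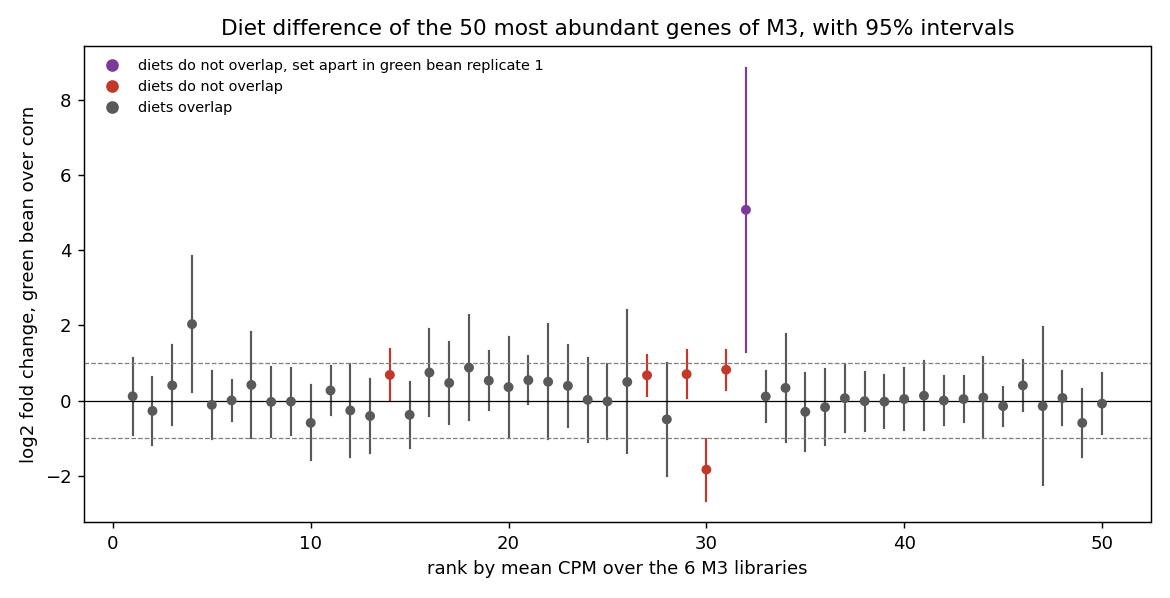
Log2 fold change of green bean over corn in M3 (y axis) with its 95% interval (vertical lines) for the 50 most abundant genes, ordered by rank (x axis), with dashed lines at a 2-fold difference. The fold changes run from -1.84 to 5.07, and the diets do not overlap in the 6 genes drawn in red or purple.

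The genes nearest to a call were taken by smallest p among those with a mean of at least 10 CPM on the diet where they were higher, since none passed the adjusted threshold. Higher on green bean were TRINITY_DN236_c0_g1 and TRINITY_DN2726_c0_g1. TRINITY_DN236_c0_g1 stood at 43.8, 50.5 and 50.8 CPM on green bean, and at 14.9, 17.2 and 17.97 CPM on corn. The diets were well apart and the replicates close to each other. The log2 fold change was 1.54 ± 0.24 (SE), and edgeR's adjusted p was 0.159 in the fit of 18 libraries and 0.0269 in the fit of the 6 M3 libraries. That call was lost without any one of the 6 libraries, with an adjusted p of 0.080 to 0.248, and with the replicate number as a block, at 0.133.

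The isoforms of TRINITY_DN236_c0_g1 differed from one another in this. Isoform i2 stood at 17.2, 8.42 and 11.50 CPM on green bean, and at 7.22, 17.2 and 17.97 CPM on corn, overlapping ranges. Isoforms i1 and i5 had counts in all 3 green bean libraries and in corn replicate 1, and none in corn replicates 2 and 3. Isoform i4 stood at 0.252, 10.2 and 9.98 CPM on green bean and was without counts in the corn libraries. Isoforms of one gene can share reads, so the division of counts among them is uncertain.

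In M2 the same gene averaged 36.8 ± 7.92 CPM on green bean and 12.05 ± 1.80 CPM on corn (SD, n = 3 each), a log2 fold change of 1.61 with an adjusted p of 0.0114 by edgeR. In M1 it averaged 42.1 ± 13.98 CPM on green bean and 22.3 ± 4.48 CPM on corn, a log2 fold change of 0.91 with an adjusted p of 0.199. The M3 fold change differed from the mean of M1 and M2 by 0.27 ± 0.29, which was not called.

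TRINITY_DN2726_c0_g1 stood at 84.1, 106.2 and 152.0 CPM on green bean, and at 31.0, 27.8 and 41.1 CPM on corn. All green bean libraries lay above all corn libraries, with a log2 fold change of 1.78 ± 0.29 and an adjusted p of 0.171 by edgeR. Both of its isoforms were higher in every green bean library than in any corn library. On green bean its level was 238 ± 61.4 CPM in M1, 135 ± 42.1 CPM in M2 and 114 ± 34.6 CPM in M3, while on corn it was 205 ± 51.8, 64.0 ± 3.12 and 33.3 ± 6.93 CPM in the same order (SD, n = 3 each). The log2 fold change of diet was 0.22 in M1 and 1.08 in M2.

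Lower on green bean were TRINITY_DN25059_c0_g1 and TRINITY_DN36618_c0_g1. TRINITY_DN25059_c0_g1 stood at 2.99, 4.16 and 4.96 CPM on green bean, and at 15.1, 15.6 and 36.5 CPM on corn. The lowest corn library was above the highest green bean library, and the log2 fold change was -2.47 ± 0.36 with an adjusted p of 0.159 by edgeR. In M2 the gene averaged 0.615 ± 0.175 CPM on green bean and 3.81 ± 0.420 CPM on corn, and in M1 0.403 ± 0.138 CPM on green bean and 0.501 ± 0.0273 CPM on corn (SD, n = 3 each). It was thus highest in M3 on either diet, and the M2 difference had a log2 fold change of -2.62 with an adjusted p of 0.0105.

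TRINITY_DN36618_c0_g1 was near absent on green bean and abundant on corn. It had 1, 3 and 2 counts on green bean, and 6005, 6227 and 8880 counts on corn, which is 0.0361, 0.0717 and 0.0648 CPM on green bean and 142.7, 235.3 and 346.8 CPM on corn. Summed over libraries, the corn level was 3753 times that on green bean, with a 95% exact binomial interval of 1724 to 10228 that covers counting error only. The adjusted p by edgeR was 0.171 in the fit of 18 libraries and 0.000254 in the fit of the 6 M3 libraries.

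This gene varied among the corn libraries of other sections. In corn M2 it stood at 0.208, 262 and 612 CPM in replicates 1 to 3, so that replicate 1 was close to the green bean level there, and in corn M1 at 0.317, 1.03 and 0.472 CPM. No green bean midgut library exceeded 0.0918 CPM. In the salivary glands it had 0 counts in all 3 green bean libraries and 11, 9 and 11 counts on corn.

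**Figure D4:**
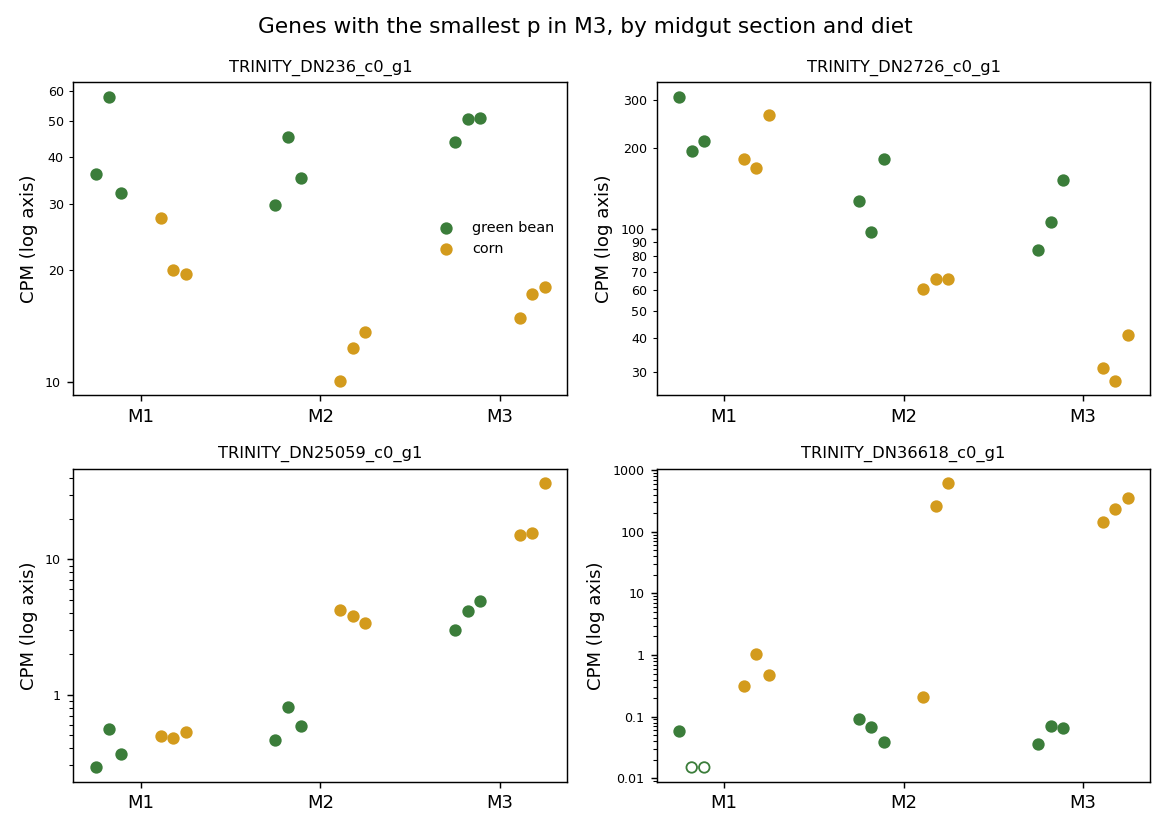
CPM (y axes, log axes) of the 4 genes with the smallest p in M3, in every midgut library, by section (x axis) and diet, with green bean left of corn and 1 point per library; open circles stand for libraries with no count. In M3 the diets are apart in all 4 genes, and TRINITY_DN36618_c0_g1 stays at or below 0.0918 CPM in every green bean library and reaches 142.7 to 346.8 CPM on corn M3.

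Genes near absent on one diet were sought by a rule chosen after the values were seen, that every library of one diet had at least 1 CPM and 20 times the highest library of the other. On green bean 2 genes were near absent by this rule, TRINITY_DN36618_c0_g1 and another with a nearly parallel course. That other gene had 2 counts over the 3 green bean M3 libraries and 9553 on corn, where it stood at 67.7, 99.7 and 158.8 CPM. In each of the 5 corn libraries of M2 and M3 in which both genes reached 1 CPM, the first was 2.11 to 2.73 times as abundant as the second. Both were low in corn M2 replicate 1 and high in corn M2 replicates 2 and 3.

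By the same rule 3 genes were near absent on corn, at lower levels. One stood at 22.3, 6.53 and 9.33 CPM on green bean and was without counts in every corn library of M3, M2 or M1, where 3 counts, taken as the limit of detection per library, correspond in M3 to 0.0713 to 0.117 CPM. In M2 and M1 it was under 1 CPM on both diets. Another stood at 21.1, 2.06 and 2.11 CPM on green bean and at most 0.0781 CPM on corn, with green bean replicate 1 far above the other two. On corn it was present in other sections, at 9.18 CPM in M2 replicate 3 and 4.30 CPM in M1 replicate 2. The last stood at 2.60, 1.55 and 1.17 CPM on green bean and at most 0.0475 CPM on corn. In M2 it stood at 110, 40.4 and 34.9 CPM on green bean and 8.30, 8.64 and 14.7 CPM on corn. None of the 5 genes passed the adjusted threshold in the fit of 18 libraries.

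Complete absence on one diet with a firm signal on the other was rare. Genes with at least 10 counts in all 3 libraries of one diet and none in the other numbered 4 for green bean and 3 for corn. With at least 1 count in place of 10, the numbers were 966 and 1056.

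The 7 genes called in the fit of the 6 M3 libraries comprised TRINITY_DN236_c0_g1, higher on green bean, and 6 lower on green bean, among them the pair near absent on that diet. In all 7 the diets did not overlap (13.4% over all genes), and all 7 were among the 891 that DESeq2 called from the same M3 libraries and those of M1 and M2. Both follow in part from choosing the 7 by a test on these M3 libraries. Each of the 7 genes had the same sign of difference in M1 and in M2. The share of same signs over all genes tested was not counted, so these signs lack a background. In M2, 6 of the 7 were called (0.5% over all genes), and in M1 0 were (0.0217% over all genes). Deviations of same-numbered libraries correlated between sections in places, as given below, so the sections may not be independent. The M2 test uses other libraries of the series but shares its estimate of spread with M3. The labels do not say whether the sections came from the same insects. One of the 7 stood at 43.0, 35.6 and 34.6 CPM on green bean, and at 407, 334 and 670 CPM on corn. Leaving out any one of the 6 libraries gave between 2 and 6 calls, and the pair near absent on green bean was called each time. Of the other 5 genes, 2 were called in 3 of the 6 fits and 3 in none.

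Diet differences in M3 were set beside those in the neighbouring sections, in the same fit of 23008 genes. M2 had 115 genes called (0.5%), 37 higher and 78 lower on green bean, and M1 had 5 (0.0217%). Of the 115 genes of M2, 107 had the same sign in M3. The share of same signs over all genes tested was not counted, and diet effects in M2 and M3 were correlated across genes, as given below. In 74 of the 115 (64.3%) the M3 diets did not overlap in the same direction, against 13.4% in either direction over all genes. None of the 115 belonged to the set of green bean replicate 1.

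The differences of these genes were smaller in M3. Among the 37 genes higher on green bean in M2 the median log2 fold change was 0.55 in M3 and 1.45 in M2, and among the 78 lower genes it was -1.03 in M3 and -2.89 in M2. Over all genes tested the M3 median was 0.0013. The difference was smaller in size in M3 for 112 of the 115 genes, but choosing genes by their M2 value favours large M2 values, and the difference between sections is tested next. The labels do not say whether the sections of one replicate came from the same insects.

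**Figure D5:**
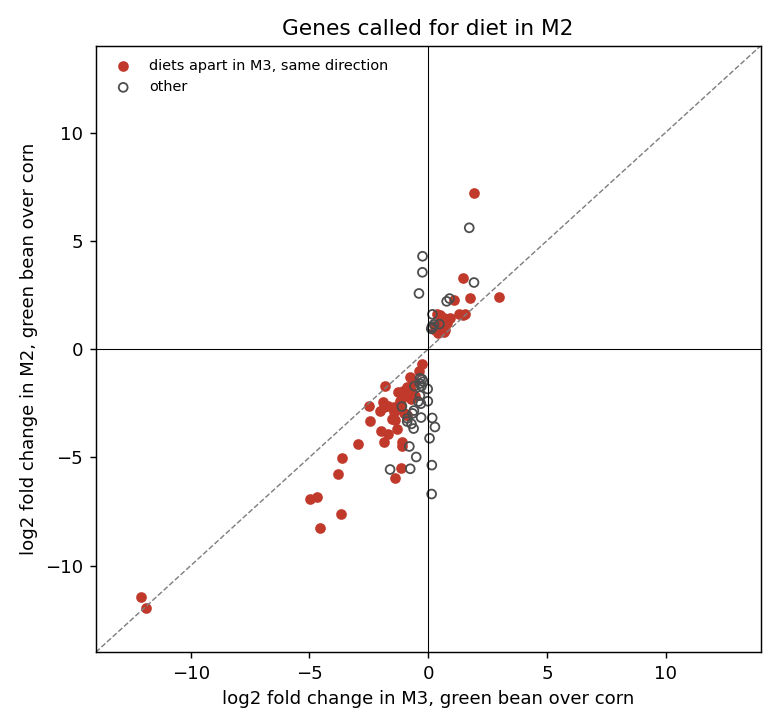
Log2 fold change of green bean over corn in M2 (y axis) against that in M3 (x axis) for the 115 genes called for diet in M2, with a dashed line at equal values. Filled red points are the 74 genes whose diets did not overlap in M3 in the same direction; most points lie nearer to 0 in M3 than in M2, and 107 have the same sign.

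The test of the difference itself, the diet effect in M3 against the mean of M1 and M2, called 0 of 23008 genes (0%) by edgeR, with 847 at an unadjusted p under 0.05 and a smallest adjusted p of 0.795. Without a filter on low counts edgeR called 68 of 193770 genes, and DESeq2 called 66 of 13100 genes for this contrast. Among the 115 genes of M2, 46 had an unadjusted p under 0.05 for it. The M2 difference enters this contrast, so choosing genes by M2 raises that count, and no conclusion is drawn from it. Within a diet, deviations of same-numbered libraries from their group means correlated between M3 and M1 at 0.91, 0.57 and 0.83 on green bean and 0.60, 0.05 and 0.30 on corn, and between M3 and M2 at 0.79, -0.16 and 0.85 on green bean and 0.59, 0.21 and 0.50 on corn. With the replicate number within each diet as a block, an alternative chosen after seeing the data, 0 genes were called, 1857 had an unadjusted p under 0.05 and the smallest adjusted p was 0.082.

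Across genes, log2 fold changes of diet in M3 correlated with those in M1 at r = 0.93 and with those in M2 at r = 0.88 over the 23008 genes tested. Without the set of green bean replicate 1, and with a mean of at least 1 CPM, they correlated at 0.39 and 0.50 (n = 10603 genes). These are descriptions across genes, whose points share libraries.

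In the salivary glands, a separate table, 15 of 12741 genes were called (0.118%), 2 higher and 13 lower on green bean. Of the named genes, TRINITY_DN2726_c0_g1 had a log2 fold change of -0.71 there, opposite in sign to M3, with an adjusted p of 0.552 by edgeR.

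Isoform usage, the share of a gene's counts in each of its transcripts, gave calls where gene totals did not. Of 8352 genes with more than 1 isoform tested, 44 (0.527%) had a diet-dependent usage in M3 at an adjusted Simes p under 0.05 (edgeR's diffSpliceDGE). In 28 of them (63.6%) the shares of the isoform that differed most did not overlap between the diets, against 19.7% of the 8352 genes, and in 11 the main isoform was a different one on each diet. The 44 genes were called on these same counts, which favours shares that do not overlap. The difference in share had a median of 18.9 percentage points and ran from 1.096 to 82.9. At the level of the gene, 39 of the 44 had a log2 fold change within 1 in either direction.

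The count of these genes moved when single libraries were left out. With the same transcripts tested, it was 36, 12 or 30 without green bean M3 replicate 1, 2 or 3, and 18, 19 or 16 without corn M3 replicate 1, 2 or 3. With the transcripts filtered anew, which raised the number of genes tested to 9184 to 10832, it was 37, 2 or 27 without green bean M3 replicate 1, 2 or 3, and 12, 16 or 18 without corn M3 replicate 1, 2 or 3. Without green bean replicate 1 in any section 48 genes were called, 23 of them among the 44.

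The gene with the smallest Simes p, chosen after the values were seen, had an adjusted p of 9.8e-15. Its leading isoform on green bean and corn was the same, at 132, 146 and 172 CPM on green bean and 149, 182 and 206 CPM on corn. Another isoform stood at 123.8, 93.0 and 49.1 CPM on green bean and was without counts in all 9 corn midgut libraries. It made up 41.4%, 31.9% and 19.0% of the gene's counts on green bean. A minor isoform showed the same split, at 13.6, 10.6 and 6.37 CPM on green bean and no count on corn. The gene as a whole had a log2 fold change of 0.35 ± 0.19, which was not called. This gene was called under each setting tried for isoform usage, with an adjusted p of at most 3.9e-08. Its green bean isoforms were also present in M1 and M2 on green bean, in every library.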

How the data were processed

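Polyadenylated RNA was sequenced from 24 libraries, 3 for each of 8 combinations of tissue and diet. Tools listed per the submitters' processing notes are Salmon 0.12, Trim Galore 0.4.4 and DESeq2 1.20.0, whose roles the notes leave unsaid; settings and reference are not given in the sources used here. The authors deposited 3 tables of estimated counts per transcript, as whole numbers, and every column was matched to a labelled library. The 3 corn M3 libraries stand in 2 of the tables, where 2387 transcripts with at least 1000 counts differed by a transcript-specific factor (SD 0.0168 on the log2 scale, residual 0.000614), so all tests stayed within the midgut table.

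Counts were summed to 201329 Trinity genes and analysed in R 4.3.3 with edgeR 4.0.16 (filterByExpr, TMM scaling, robust glmQLFit with 1 mean per tissue and diet over all 18 midgut libraries, glmQLFTest, two-sided), with DESeq2 1.42.0 as an alternative. Sharing the spread over 18 libraries was chosen because 3 libraries say little about it. CPM are counts scaled to the TMM-scaled library total, except in the rule for the set of green bean replicate 1, which used the plain library total with a floor of 0.1 CPM. P-values were adjusted by Benjamini-Hochberg across the genes tested. A standard error is the log2 fold change divided by the square root of F. Isoform usage was tested with diffSpliceDGE on transcripts. Single values were compared by exact permutation. The scripts were tested on simulated data in which no library was set apart from the others. For genes, these were drawn with edgeR's estimates of spread and library size, which can favour edgeR. There DESeq2's calls held more false genes than its threshold allows, and a larger share than edgeR's. The isoform test missed more of the changed genes when the simulated shift in share was smaller.

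The named genes were the 2 highest and 2 lowest past an adjusted p of 0.05, a log2 fold change of 1, no overlap and 10 CPM; none passed, so those with the smallest p and at least 10 CPM were taken, with the 3 most abundant genes. The groups, lists and tests were chosen with earlier results of these data known.

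Library totals in M3 ran from 22603185 to 33954593 counts, and binomial intervals and limits at 3 counts cover counting error only. Within a diet, chi-square per degree of freedom between replicate pairs was 60.2 to 219, where sampling noise alone gives about 1, so none appeared to be deposited in duplicate. Deviations of same-numbered green bean and corn M3 libraries from their group means correlated at 0.04, 0.08 and -0.01, so the numbers were not taken to pair the diets.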

Additional observations from a re-analysis of the deposited data

How the results depend on the processing

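The count of genes called for diet in M3 was 0 by edgeR on 18 libraries and stayed 0 with DESeq2 size factors, without robust estimation, on transcripts in place of genes, without corn replicates 2 and 3 in every section, and without each M3 library in turn (0 to 0). It was 891 with the DESeq2 test, 7 with the M3 libraries only and 3 without corn replicate 1 in every section, where the median log2 fold change moved to 0.59. With no filter on low counts it was 8071 of 193770 genes. Of these 8071, 5326 were among the 7651 genes set apart in green bean replicate 1. In 7663 of the 8071, that library held over 90% of the green bean M3 counts. Alternatives chosen after seeing the data were the fits without green bean replicate 1 or without replicate 1 of both diets, those without the set, those of the M3 libraries only that leave out a library or add the block, and, for isoform usage, the M3 libraries only and the repeats on the same transcripts. Without green bean replicate 1 in every section edgeR called 0 genes filtered anew and 3 with the genes of the full fit, and DESeq2 called 129. With the M3 libraries only, leaving out 1 library at a time gave 2 to 6. Without replicate 1 of both diets 5 were called. Without the genes set apart in green bean replicate 1 by at least 10, 32 or 100 times, edgeR called 9, 0 and 0 genes, so the count after removing such genes depends on where the set is bounded. The cause of these changes was not tested. With the replicate number as a block, 8 genes were called (2 with the M3 libraries only), while for the section contrast and for isoform usage the block gave 0 and 45; the numbers do not pair the diets. The section contrast gave 66 genes with DESeq2 and 68 with no filter. Isoform usage gave 84 genes with the M3 libraries only and 2 to 37 without 1 M3 library each (12 to 36 on the same transcripts, where leaving out corn M3 replicate 1, 2 or 3 gave 18, 19 or 16). The difference in genes detected, 2348, was -2707 after thinning, -1609 without the set (also chosen after seeing the data), and -9674 to 24156 without 1 library each; that in genes holding 50% of the counts ran from -41.8 to 0.667. Log2 fold changes of the abundant genes changed sign in places, TRINITY_DN223_c10_g2 (0.30 without corn M3 replicate 3) to -0.10 without corn replicate 1 in every section, -0.12 without it in M3 alone (-0.11 with the genes of the full fit) and -0.14 without replicate 1 of both diets. TRINITY_DN0_c0_g3 (-0.51 without corn M3 replicate 1) came to 0.41 without corn replicates 2 and 3 in every section and to 0.013 without corn M3 replicate 3 (0.016 with the genes of the full fit), and TRINITY_DN256_c0_g1 to -0.039 without replicate 1 of both diets. The 4 genes with the smallest p kept their direction under each of the 22 alternatives in which single genes were followed. In all 4 the M3 diets did not overlap, so leaving out libraries or refitting the same counts could hardly reverse them.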
